A study of Homo sapiens with 16 samples.

Results

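Of the 6222 genomic regions that held a peak in ChIP-Seq samples of HEK293T cells with the antibody label Polk, 461 lay at the start of a long noncoding RNA (lncRNA) gene and away from the start of every protein-coding gene, although 172 of them lay within 1 kb of the start of some transcript of one. Of the 34 that also hold a small RNA gene or a tRNA-type promoter, 31 were found in every list, where 17.8% of all regions were. Of the other 427, 256 (60%, exact interval 55.1 to 64.6) were found in the DDX23−/− list alone. That interval includes the 55.4% of all regions, a background that still holds regions with a small RNA gene or tRNA-type promoter. Over all 461 members the share was 56%. The pulldown behind the DDX23−/− list was also 3.94 times as deep as that behind the wild-type list. Genotype and depth therefore cannot be told apart in this share. The 3 peak lists were pooled and overlapping peaks were merged into regions. A member is a merged region within 1 kb of the start of a gene of type lncRNA and more than 1 kb from every protein-coding gene start in GENCODE release 44 on GRCh37, with genes named SNHG left out. By the same rule, 4431 regions lay within 1 kb of a protein-coding start, 1323 lay near neither kind of start, and 7 lay near SNHG genes only.

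The series holds 16 samples of HEK293T, a line derived from human embryonic kidney. ChIP-Seq counts the DNA fragments that are pulled down with a protein, and a peak is a place where they pile up over the local background. The lists used here came from wild-type cells, from cells in which POLK was knocked out (POLK−/−) and from cells in which DDX23 was knocked out (DDX23−/−), all without treatment, with 1 list for each genotype and therefore no replicates and no test between genotypes. POLK encodes Pol κ, a translesion DNA polymerase, and DDX23 encodes a DEAD-box helicase of the spliceosome. The antibody label of these samples is Polk, while the protocol names anti-FLAG beads and the labels give no tag for these cells, which leaves the identity of the pulled-down protein uncertain. Whether each knockout is 1 clone is not given in the sources used here, and a peak list cannot check that the targeted gene is lost. The numbers inside the peak names were 4, 1 and 2 for wild-type, POLK−/− and DDX23−/−, although each list belongs to the sample numbered 1 of its genotype, so which library a list was called from is also uncertain.

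The wild-type list held 1468 peaks, the POLK−/− list 2451 and the DDX23−/− list 5945. From the deposited fold and p of each peak, the whole number of fragments at its summit and its local background in fragments were recovered. By the lowest background, the pulldown behind the POLK−/− list was 2.36 times as deep as that behind the wild-type list, and the one behind the DDX23−/− list 3.94 times as deep. The genotype and the depth of its list cannot be told apart in counts of peaks. Exact intervals are at 95% and cover counting error only, not the spread between cultures.

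A lncRNA gene makes an RNA that is not translated, usually with RNA polymerase II from a promoter much like that of an mRNA gene. Many such genes start within or opposite a protein-coding gene, and others stand alone between genes. Some lncRNAs act in the nucleus, as scaffolds of nuclear bodies or in the silencing of neighboring genes, and others host microRNAs in their introns. RNA polymerase III makes tRNAs, U6, 7SL, Y and vault RNAs instead, and at tRNA genes it is recruited through an A box and a B box inside the gene. Short genes of this kind can lie close to an annotated lncRNA start.

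The sites of the strongest members are shown first, because several of them share a sequence feature. A tRNA-type promoter was taken as an A box (TNGCNNAG) followed on the same strand by a B box (GTTCGANNC) with 24 to 110 bp between them. Of the 12 strongest members in all 3 lists, ranked by p, the 5 with such a site are given with 10 bp on either side (GRCh37 reference, 5′ to 3′ on the strand of the boxes, boxes in capitals).
LINC02136, chr16:71460393-71460466, plus strand: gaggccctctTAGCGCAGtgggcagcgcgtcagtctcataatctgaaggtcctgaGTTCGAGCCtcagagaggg
LINC01556, chr6:28911401-28911483, minus strand: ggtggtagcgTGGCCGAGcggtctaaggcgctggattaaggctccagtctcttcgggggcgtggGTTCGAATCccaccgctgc
ENSG00000248514, chr5:180634752-180634825, plus strand: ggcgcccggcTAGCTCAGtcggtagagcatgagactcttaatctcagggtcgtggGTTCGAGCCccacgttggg
ENSG00000261889, chr16:3207408-3207481, minus strand: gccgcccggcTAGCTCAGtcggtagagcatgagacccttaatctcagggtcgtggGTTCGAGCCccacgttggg
AGBL5-AS1, chr2:27273647-27273736, plus strand: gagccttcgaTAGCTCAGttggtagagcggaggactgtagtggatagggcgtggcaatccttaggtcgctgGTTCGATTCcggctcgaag

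The spacing between the boxes was 37 bp at LINC02136, 46 bp at LINC01556 and 53 bp at AGBL5-AS1. The sites at ENSG00000248514 on chromosome 5 and ENSG00000261889 on chromosome 16 were identical at 72 of 74 bases, so fragments of one could be placed at the other, and their values are uncertain to that extent.

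The 6 strongest members in all 3 lists without such a site or an annotated small RNA gene were next searched with wider boxes, which allow other bases at some positions, require more at others and were chosen after the data were seen. The 5 that matched are shown in the same way.
LINC01623, chr6:28831464-28831536, minus strand: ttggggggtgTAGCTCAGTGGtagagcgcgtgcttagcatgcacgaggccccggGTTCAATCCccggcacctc
ENSG00000225173, chr6:28806223-28806295, minus strand: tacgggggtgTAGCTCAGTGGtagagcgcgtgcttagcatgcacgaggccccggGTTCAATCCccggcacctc
ENSG00000262521, chr16:3234135-3234207, minus strand: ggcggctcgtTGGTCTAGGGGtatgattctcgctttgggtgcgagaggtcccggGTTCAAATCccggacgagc
LINC00324, chr17:8125558-8125630, minus strand: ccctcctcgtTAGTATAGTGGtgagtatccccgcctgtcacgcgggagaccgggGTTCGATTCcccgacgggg
LINC02453, chr12:98898027-98898099, plus strand: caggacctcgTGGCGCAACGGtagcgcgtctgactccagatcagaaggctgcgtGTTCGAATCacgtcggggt

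All 5 of these sites had 33 bp between the boxes. The sites at LINC01623 and ENSG00000225173 were identical at 71 of 73 bases, with the same uncertainty of placement. The small RNA gene types searched in the annotation included none for nuclear tRNAs, so a tRNA gene at these positions could not be found this way. A match is a description of the letters only.

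The summit base with 75 bp on either side is shown for members of well-known lncRNA genes and for ENSG00000270117, inside the MALAT1 gene. The same window is shown for ENSG00000259932, the strongest member that lacked the pair of boxes in either form. These run 5′ to 3′ on the strand of the lncRNA gene, and capitals mark, on either strand, the TATA motif TATAAA, the motif CCAAT of NF-Y and the GC motif GGGCGG.
NEAT1, chr11:65190165-65190315, plus strand: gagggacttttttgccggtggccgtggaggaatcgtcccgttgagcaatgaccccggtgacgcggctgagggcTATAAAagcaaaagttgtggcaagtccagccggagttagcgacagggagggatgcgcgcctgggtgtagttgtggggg
TERC, chr3:169482769-169482919, minus strand: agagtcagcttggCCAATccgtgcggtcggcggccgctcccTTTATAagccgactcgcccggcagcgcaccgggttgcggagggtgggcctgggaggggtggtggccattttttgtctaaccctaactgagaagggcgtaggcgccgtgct
NORAD, chr20:34638746-34638896, minus strand: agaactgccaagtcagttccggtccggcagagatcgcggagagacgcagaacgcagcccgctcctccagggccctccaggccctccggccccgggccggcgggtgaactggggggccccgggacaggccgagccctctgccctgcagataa
CRNDE, chr16:54963043-54963193, minus strand: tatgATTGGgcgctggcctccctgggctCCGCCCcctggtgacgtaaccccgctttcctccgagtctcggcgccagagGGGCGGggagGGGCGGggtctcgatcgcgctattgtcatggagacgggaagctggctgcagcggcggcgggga
FIRRE, chrX:130964543-130964693, minus strand: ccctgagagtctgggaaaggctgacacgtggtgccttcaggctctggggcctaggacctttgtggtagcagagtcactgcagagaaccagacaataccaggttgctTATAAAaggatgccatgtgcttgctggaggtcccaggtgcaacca
ENSG00000259932, chr15:45490812-45490962, minus strand: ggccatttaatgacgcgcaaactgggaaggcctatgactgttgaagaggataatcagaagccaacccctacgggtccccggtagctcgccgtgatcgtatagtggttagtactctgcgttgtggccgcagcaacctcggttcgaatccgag
ENSG00000270117, chr11:65266420-65266570, minus strand: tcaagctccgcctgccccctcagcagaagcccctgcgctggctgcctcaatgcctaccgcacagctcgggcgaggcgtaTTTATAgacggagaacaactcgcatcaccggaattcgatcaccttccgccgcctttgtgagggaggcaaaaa

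NEAT1, TERC, FIRRE and ENSG00000270117 held TATAAA in this window, CRNDE held GGGCGG 3 times, and NORAD held none of the 3 motifs. The window of ENSG00000259932, in an intron of SHF, held none of them either, and 55% of its bases were G or C. It did hold 1 match to the B box, near its printed 3′ end, and none to the A box as first defined. The boxes are fixed patterns, so a site that differs from them at 1 base is missed, and a tRNA-type promoter here is not excluded.

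Most member regions were found in the deepest list. Of the 461 members, 111 (24.1%, exact interval 20.2 to 28.2) held a wild-type peak, against 23.3% of all 6222 regions. The POLK−/− list held a peak at 188 (40.8%, 36.3 to 45.4), against 39.2% of all regions, and the DDX23−/− list at 441 (95.7%, 93.4 to 97.3), against 95.4%. In all 3 lists there were 95 members (20.6%, 17 to 24.6), beside 17.8% of all regions. Members found in the DDX23−/− list only numbered 258 (56%, 51.3 to 60.6), beside 55.4% of all regions. These shares lay near the background of all regions.

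Taken against wild-type, 92 members held a POLK−/− peak and no wild-type peak (20%, 16.4 to 23.9), where the background was 21.3%, and 15 the reverse (3.25%, 1.83 to 5.31), where it was 5.37%. For DDX23−/−, 335 members had a peak and no wild-type peak (72.7%, 68.4 to 76.7; background 73.8%), and 5 the reverse (1.08%, 0.353 to 2.51; background 1.72%). Both knockout lists and not the wild-type list held 77 members (16.7%, beside 18.4% of all regions), and the POLK−/− list alone 15 (3.25%, beside 2.89%). The wild-type and DDX23−/− lists held 11 (2.39%, beside 3.74%), the wild-type list alone 4 (0.868%, beside 1.62%), and the wild-type and POLK−/− lists 1 (0.217%, beside 0.0964%).

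The number of shared members moved with the number of peaks per list. When the 1468 peaks with the smallest p were taken from each list, 168 member regions were left, and 76 of them (45.2%, 37.6 to 53.1) were in all 3 lists, against 35.4% of the 2293 regions so formed. Those in the DDX23−/− list only fell to 22 (13.1%, 8.39 to 19.2; background 12.9%), and 24 (14.3%, 9.37 to 20.5; background 18.2%) were in the wild-type list only. At equal numbers of peaks, the share in all 3 lists was 31.8% (29.5 to 34.2) at protein-coding starts and 41.6% (37.7 to 45.7) at regions near neither start.

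Nearly all members with a small RNA gene or a tRNA-type promoter were found in every list, but most members found in every list held neither. A tRNA-type promoter lay in 17 members (3.69%, 2.16 to 5.84), in 25 of the 4431 regions at protein-coding starts (0.564%, 0.365 to 0.832) and in 89 of the 1323 regions near neither start (6.73%, 5.44 to 8.21). An annotated small RNA gene lay in 19 members, of which 8 were genes of spliceosomal snRNAs or close copies, 4 were 7SL, Y or vault RNA genes, and 7 were of the annotated type microRNA. Either feature was present in 34 members (7.38%, 5.16 to 10.2), beside 3.28% of all regions and 8.84% of those near neither start. Of the 34 members, 31 (91.2%, 76.3 to 98.1) were in all 3 lists, and none was in both knockout lists only. These 31 were part of the 95 members in all 3 lists. Of the other 427 members, 64 (15%, 11.7 to 18.7) were in all 3 lists and 256 (60%, 55.1 to 64.6) in the DDX23−/− list only. For comparison, 29 of 53 such regions at protein-coding starts (54.7%, 40.4 to 68.4) and 91 of 117 near neither start (77.8%, 69.2 to 84.9) were in all 3 lists. When a match to either form of the boxes was counted, 53 members (11.5%) held either feature. The share was 6.48% of all regions and 19.7% of those near neither start. Of the 53 members, 43 (81.1%, 68 to 90.6) were in all 3 lists.

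**Figure D1:**
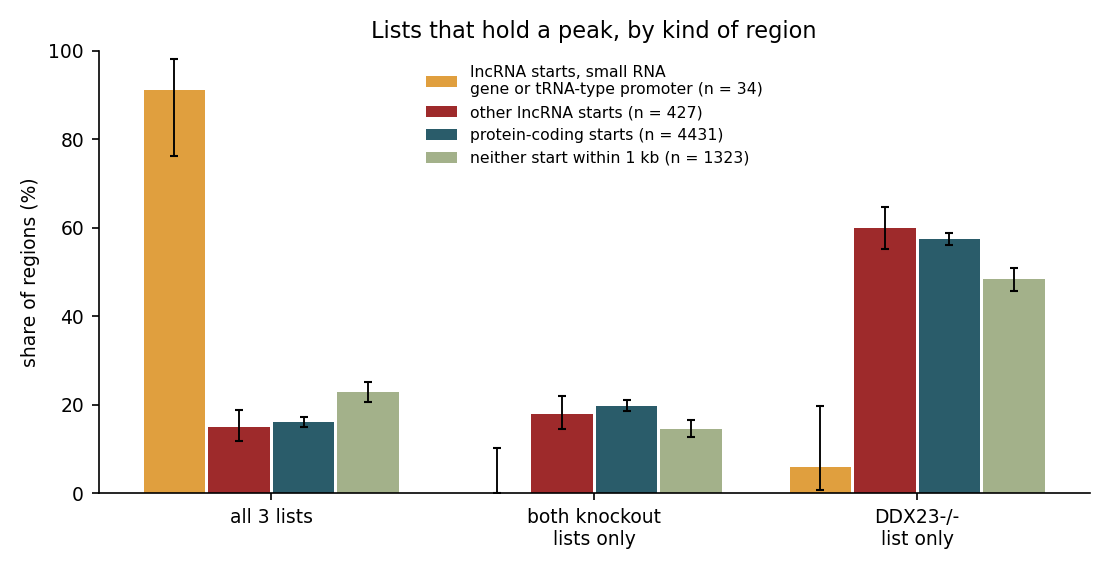
Share of regions (%, vertical axis) with a peak in all 3 lists, in both knockout lists only and in the DDX23−/− list only, for 4 kinds of region; error bars are exact 95% binomial intervals. Members with a small RNA gene or tRNA-type promoter stand at 91.2% in all 3 lists, whereas the other members stand at 15%, close to the 16% of protein-coding starts.

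The 12 members with the smallest rank sum of p over the 3 lists had between 120 and 279 fragments at the summit in the wild-type list. LINC02136, an intergenic lncRNA gene on chromosome 16 (region chr16:71460008-71461124, outside protein-coding genes), had 199, 366 and 388 fragments in wild-type, POLK−/− and DDX23−/−. Divided by the local background, these gave an enrichment of 41 (35.5 to 47.1), 79.8 (71.8 to 88.4) and 119 (107 to 131). Its summit lay 43 bp upstream of the gene start, and the site printed above lies within the region. LINC01556 on chromosome 6 (chr6:28910993-28911858) had 158, 355 and 375 fragments and nearly the same enrichment in each list, 65.2, 65.3 and 61.8.

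LINC01623 (chr6:28831068-28831922) had the most fragments of any member in each list, 279, 391 and 390, and its enrichment was 51.1, 57.6 and 72.9. Its neighbor ENSG00000225173 (chr6:28805505-28806727) had 176, 299 and 372 fragments and an enrichment of 141, 130 and 96.3, so the order of the lists was the reverse of that at LINC01623. The near-identity of the sites in both regions bears on all 6 values. LINC00324 on chromosome 17 had 204, 371 and 373 fragments, with its strongest summit 1742 bp downstream of the gene start, in a region of 3064 bp.

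AGBL5-AS1, antisense to the protein-coding gene AGBL5, had 152, 322 and 371 fragments and an enrichment of 62.7, 86.4 and 48.9, and its summit lay in an intron of AGBL5. ENSG00000259932, in an intron of SHF, had 157, 315 and 364 fragments. The others of the 12 were ENSG00000248514, ENSG00000261889, ENSG00000262521, ENSG00000285703 and LINC02453. Of the 12, 5 held a tRNA-type promoter as first defined, and 11 held one in either form of the boxes. Among the 50 strongest members in all 3 lists, 25 held a small RNA gene or tRNA-type promoter, against 6 of the other 45. Chromosome 6 held 12 of those 50 and 41 of all members (8.89%), where it held 7.89% of all regions.

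**Figure D2:**
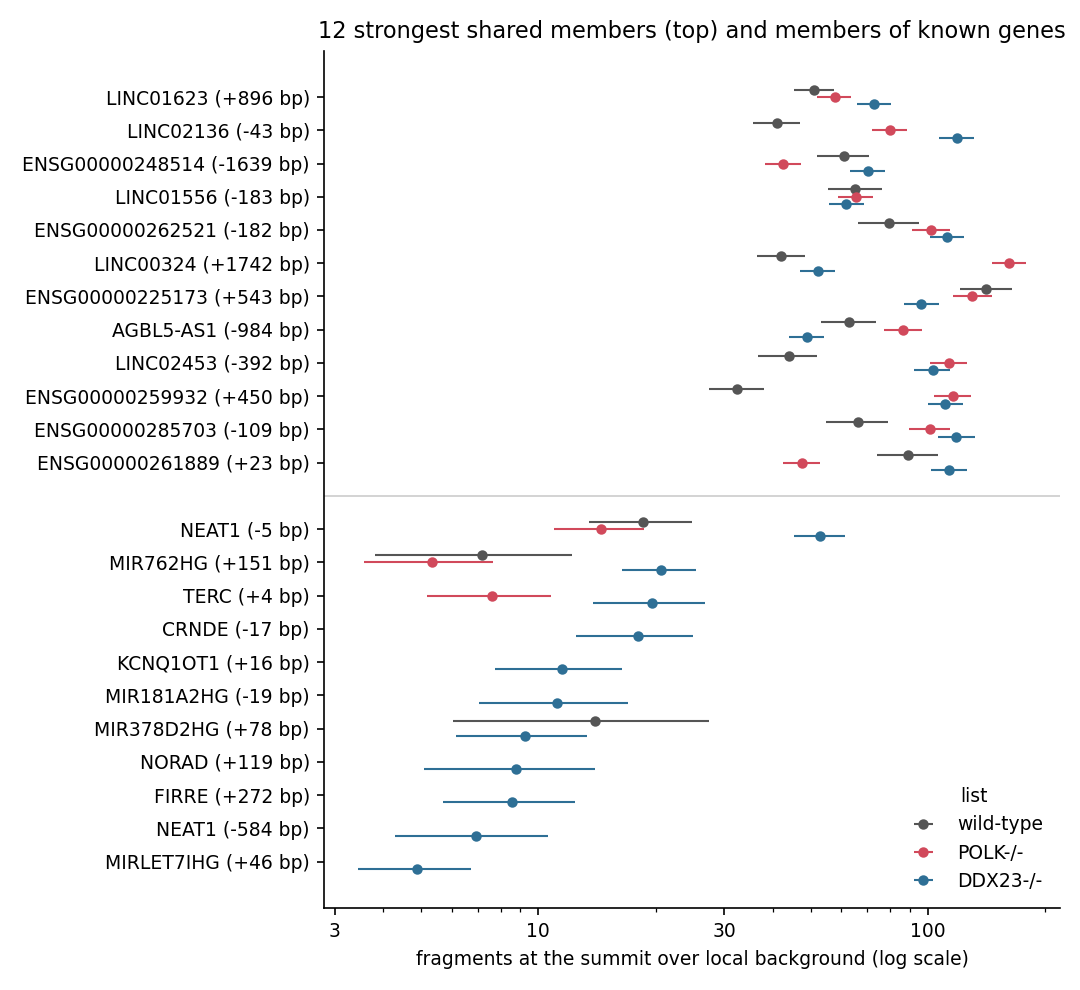
Enrichment, the fragments at the summit over the local background (horizontal axis, log scale), in each list for the 12 strongest members in all 3 lists (top) and for the members of known genes (bottom), with the distance from gene start to summit beside each name; bars are exact 95% Poisson intervals of the fragments. The upper group lies above 30 in every list, and 7 of the 11 regions of the lower group have a DDX23−/− point only.

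At the small RNA genes, the fragments of each list are given next. RN7SL2, a gene of the 7SL RNA of the signal recognition particle, lies in the region of ENSG00000278002 (chr14:50328940-50329920) and had 104, 250 and 339 fragments (wild-type, POLK−/− and DDX23−/−, the order used below). RNY1, which encodes a Y RNA, lies at GHET1 (chr7:148683918-148684706) and had 128, 127 and 336. RNY5, a second Y RNA gene, lies at ENSG00000286171 (chr7:148637894-148638942) and had 73, 67 and 252. VTRNA1-1, a vault RNA gene, lies at ENSG00000292256 and had 70, 190 and 313.

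Per unit of depth, both Y RNA members were lower in the POLK−/− list than in the wild-type list, by a factor of 0.421 (0.327 to 0.542) at RNY1 and 0.389 (0.275 to 0.55) at RNY5. The same quotient was 1.02 (0.808 to 1.29) at RN7SL2 and 1.15 (0.871 to 1.54) at VTRNA1-1. Relative to the local background instead, RNY5 was still lower, with an enrichment of 16.4 in the POLK−/− list against 75.5 in the wild-type list, but RNY1 was higher, 58.3 against 35.2. In the DDX23−/− list the quotient per depth was 0.665 (0.541 to 0.822) at RNY1 and 0.875 (0.672 to 1.15) at RNY5.

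The snRNA genes had fewer fragments. RNU1-1, a gene of U1, the snRNA that binds the 5′ splice site, had 39, 149 and 218 fragments, 1.62 times (1.13 to 2.37) the wild-type value per depth in the POLK−/− list. RNU4ATAC, of the minor spliceosome, lies at CLASP1-AS1 and had 47, 111 and 143. The U6 genes RNU6-7 and RNU6-1 had 48, 102 and 157, and 32, 53 and 191, and lie at ENSG00000286527 and SKOR1-AS1. RNU5E-1 had 12, 30 and 62. RNVU1-6, RNVU1-14 and RNU1-60P are close copies of the U1 gene. Their values and those of RNU1-1 are uncertain because reads can be split between copies. The same limit applies to any other small RNA gene with close copies. Of the 7 members with a gene of the type microRNA, 4 were in all 3 lists, among them the one at LARRPM, whose gene is named TRNAI2 and which had 111, 251 and 324 fragments. The regions of MIRLET7I and AL391839.1 were in the DDX23−/− list only.

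Among well-known lncRNA genes, NEAT1 was in every list, TERC in both knockout lists and the others with a member in the DDX23−/− list only. A list of 33 such genes in 7 groups was used, of which 21 were of type lncRNA and more than 1 kb from a protein-coding start, and 6 of these 21 had a member (28.6%, 11.3 to 52.2), beside 3.13% of all 16020 such lncRNA genes. The list was chosen with earlier results known, and its genes were not matched to the others for expression. NEAT1, the scaffold of paraspeckles, had 2 member regions. The one over its start (chr11:65190015-65190752, summit 5 bp upstream) had 45, 59 and 173 fragments and an enrichment of 18.6 (13.5 to 24.8), 14.5 (11 to 18.7) and 52.9 (45.3 to 61.4). The DDX23−/− enrichment lay above both other intervals, and those of wild-type and POLK−/− overlapped. Per unit of depth, however, its fragments were 0.975 times the wild-type value in DDX23−/− and 0.556 times in POLK−/−, so the higher DDX23−/− value was not seen on that scale. The other NEAT1 region, 584 bp upstream, had 21 fragments in the DDX23−/− list and no peak in the other lists.

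TERC, the template RNA of telomerase (chr3:169482665-169483032, summit 4 bp inside the gene), had 31 fragments in POLK−/− and 38 in DDX23−/−, with an enrichment of 7.61 (5.17 to 10.8) and 19.6 (13.8 to 26.8). In the DDX23−/− list only, KCNQ1OT1, an imprinted lncRNA that silences its neighbors, had 30 fragments 16 bp inside its start (enrichment 11.5, 7.74 to 16.4). NORAD, which binds PUMILIO proteins, had 17 (8.75, 5.1 to 14), FIRRE, a nuclear lncRNA of the X chromosome, 28 (8.57, 5.69 to 12.4), and CRNDE, named for its expression in colorectal neoplasia, 35 (18, 12.5 to 25).

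MALAT1, an abundant nuclear lncRNA, had no region within 1 kb of its gene start, the nearest being 1100 bp away. That nearest region is itself a member, named for ENSG00000270117, and its summit lies inside the MALAT1 gene. It had 49, 179 and 233 fragments and an enrichment of 40.4, 32.9 and 76.8. Per unit of depth, its fragments were 1.55 times the wild-type value in POLK−/− and 1.21 times in DDX23−/−, so the order of the lists depends on the scale. No region lay within 1 kb of the starts of the snoRNA hosts GAS5, ZFAS1, EPB41L4A-AS1, DANCR and CYTOR, of the imprinted H19, MEG3 and MEG8, of the X-linked JPX and FTX, of the HOX lncRNAs HOTAIR, HOTTIP, HOXA-AS2 and HOXA11-AS, or of DLEU2, MIAT, SOX2-OT and PCBP1-AS1. LINC-PINT, HOTAIRM1 and OIP5-AS1 had regions that also lay within 1 kb of a protein-coding start, and TUG1 is annotated as protein-coding, so none of these is a member. BCYRN1 and RMRP are annotated with types other than lncRNA, and RPPH1 and LINC01578 were not found by name.

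Of the 75 microRNA host genes named MIR...HG that lay more than 1 kb from a protein-coding start, 4 had a member (5.33%, 1.47 to 13.1), beside the same 3.13%. MIR762HG was in all 3 lists, with 13, 29 and 85 fragments. MIR378D2HG had 8 fragments in the wild-type list and 28 in the DDX23−/− list. MIR181A2HG had 22 and MIRLET7IHG 37, both in the DDX23−/− list only, with an enrichment of 11.2 (7.03 to 17) and 4.88 (3.44 to 6.73).

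Few lncRNA genes away from protein-coding starts had a member. Of 16020 lncRNA genes whose start lay more than 1 kb from a protein-coding start, 502 (3.13%, 2.87 to 3.42) had a member within 1 kb, of which 130 had it in wild-type, 205 in POLK−/− and 480 in DDX23−/−. For protein-coding genes, which the rule on distance to a protein-coding start does not limit, the share was 5128 of 20176 (25.4%, 24.8 to 26). The shares are therefore not counted alike. The members' nearest starts belonged to 441 genes, 20 of which were nearest to 2 members. By name, 236 members (51.2%) were at genes with an identifier or clone name only, 88 (19.1%) at genes named as antisense, 63 (13.7%) at intergenic genes named LINC, 23 (4.99%) at divergent transcripts named -DT, 4 at microRNA hosts and 47 at other names. Those in all 3 lists were 54 of the 236 with an identifier only (22.9%), 12 of the 88 antisense genes (13.6%), 14 of the 63 LINC genes (22.2%), 4 of the 23 divergent transcripts (17.4%), 1 of the 4 microRNA hosts and 10 of the 47 others (21.3%), beside 20.6% of all members.

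The strongest summit lay outside protein-coding genes at 261 members (56.6%), in an intron at 117 (25.4%) and in an exon at 83 (18%). Where it lay inside one, the lncRNA ran antisense to the protein-coding gene at 187 members and along it at 11. The nearest protein-coding gene start was at a median of 24361 bp, with 97 members within 5 kb and 140 beyond 50 kb. As the annotation counts every transcript, 172 of the 461 members lay within 1 kb of the start of some annotated transcript of a protein-coding gene, 30 of them in all 3 lists (17.4%, beside 17.8% of all regions) and 103 in the DDX23−/− list only (59.9%, beside 55.4%), so these peaks cannot be assigned to the lncRNA start alone.

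The rule fixes that a member lies near a lncRNA start, so its distance is a description. The strongest summit was within 100 bp of it at 179 members (38.8%) and within 250 bp at 283 (61.4%), with a median distance of 180 bp (133 to 211). At protein-coding starts the median was 100 bp (95 to 106), and 72.5% were within 250 bp. Members with a small RNA gene or tRNA-type promoter were farther from the lncRNA start, at a median of 340 bp (183 to 469), against 163 bp (125 to 199) for the others. The summit was upstream of the start at 243 members and at or downstream of it at 218. It was more than 1 kb away at 15, whose regions reach to within 1 kb. The rule joins 388 members to 1 lncRNA start and 73 to 2 or more, and 61 have starts on both strands.

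**Figure D3:**
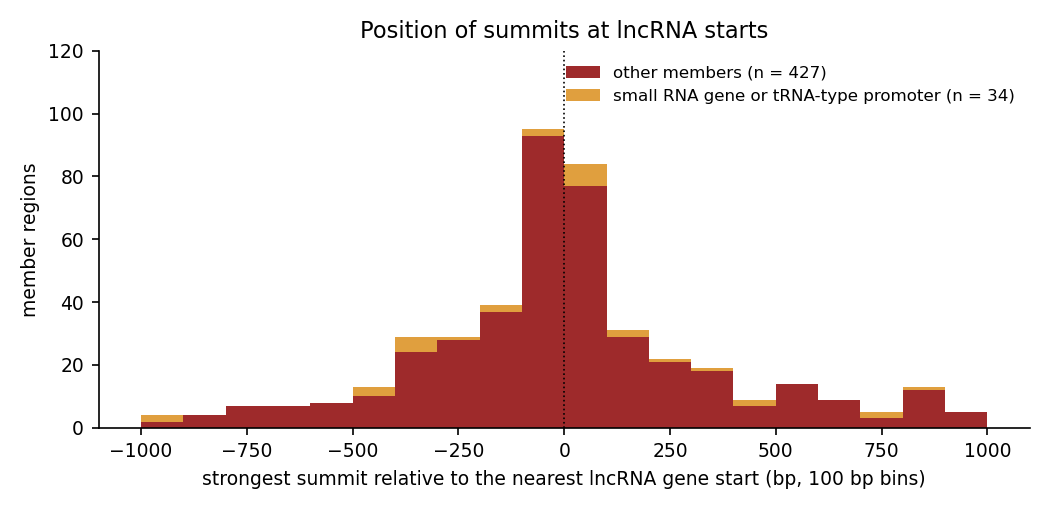
Number of members (vertical axis, stacked) by the position of the strongest summit relative to the nearest lncRNA gene start (horizontal axis, bp, bins of 100 bp, negative is upstream), for those with a small RNA gene or tRNA-type promoter and the others; the 15 members with a summit over 1 kb away lie outside the axis. The counts peak in both bins beside the start, which together hold the 179 members within 100 bp.

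At the edge of the rule, the members farthest from a lncRNA start were 996, 993 and 953 bp away and were in the DDX23−/− list only. The nearest regions left out were 1041, 1042 and 1074 bp away, and the one at 1042 bp (chr16:3232334-3232976) was in all 3 lists.

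Peak strength in the wild-type list was higher at members than at protein-coding starts, but without members holding either feature the intervals overlapped. The median enrichment in that list was 18.6 (16.5 to 21.6) over 111 members and 15.3 (14.8 to 15.7) over 929 regions at protein-coding starts. It was 19.8 (18.1 to 22) at regions near neither start. Without the 32 that held a small RNA gene or tRNA-type promoter, the median of the other 79 members was 17 (14 to 19.2), and that of the 32 was 33.7 (18.7 to 62.7). With matches to either form of the boxes left out, 67 members had a median of 15.9 (13.8 to 17.4). In the DDX23−/− list, the median enrichment was 11.3 (10.6 to 12.3) over 441 members and 10.8 (10.6 to 10.9) at protein-coding starts, with 45.5 (24.7 to 70) at the 34 members with either feature. These medians are over peaks that passed each list's threshold and are descriptions only.

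Members outside the shared set had weak peaks, but the groups were formed by passing thresholds in lists of unlike depth. The difference is therefore partly set by the grouping and is a description only. Members in the DDX23−/− list only had a median of 29 fragments (28 to 30), against 72.5 (67 to 95) in the same list at members without either feature in all 3 lists. Those in both knockout lists only had a median of 21 fragments in POLK−/− and 39 in DDX23−/−. Among those in the DDX23−/− list only, the 5 with the smallest p included ENSG00000261584 on chromosome 6 with 154 fragments, and ENSG00000289452 and ENSG00000287168 with 66 each. MEF2C-AS2 had 51, in a second region beside one found in all 3 lists. ENSG00000283317, ENSG00000291079 and ENSG00000288018 were among the 5 strongest in both knockout lists only, with 20, 27 and 20 fragments in POLK−/− and 79, 79 and 70 in DDX23−/−. In the same group, STEAP2-AS1 had 22 fragments in POLK−/− and 91 in DDX23−/−, and ENSG00000265401, in an exon of UBB and 1057 bp from its start, had 87 and 46.

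In the POLK−/− list alone, the strongest were ENSG00000289044 with 28 fragments, CCDC13-AS2 with 27, LINC02506 with 26, ENSG00000262202 with 22 and PTENP1-AS with 18. In the wild-type list alone, the 4 were LINC02048 and ENSG00000289831 with 15 fragments each, ENSG00000227365 with 10 and FAM86JP with 7. ENSG00000287529, the single member in the wild-type and POLK−/− lists, had 13 and 48. Those in the wild-type and DDX23−/− lists included LINC01703 (13 and 64), ZNF767P (15 and 49), ENSG00000289109 (11 and 49), ENSG00000289014 (10 and 47) and SLC12A9-AS1 (9 and 44). FAM86JP, ZNF767P and PTENP1-AS are, or lie at, genes with copies elsewhere, so their counts are uncertain.

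Enrichment at shared members did not move in one direction in the POLK−/− list. At the 96 members with a peak in both lists, the median ratio of POLK−/− to wild-type enrichment was 0.947 (0.747 to 1.19), beside 0.941 (0.893 to 0.997) at all 1114 such regions. It was at least 1.5 times higher at 28 members (29.2%; background 22.8%) and at least 1.5 times lower at 28 (29.2%; background 28.6%). For DDX23−/−, the median over 106 members was 1.27 (1.1 to 1.42), beside 1.24 (1.19 to 1.3) at all 1341 regions, with 36 members (34%; background 38.7%) at least 1.5 times higher and 8 (7.55%; background 13.5%) lower.

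The ratio rests on the local background of each peak, which differed between lists. Dividing the fragments by the depth of the list instead, an alternative chosen after the data were seen, gave a median of 1.01 for POLK−/− and 1.02 (0.894 to 1.13) for DDX23−/−, so the higher DDX23−/− median was lost. On this scale 16 members were at least 1.5 times higher in POLK−/− (background 13%) and 9 lower (background 8.62%). In DDX23−/−, 12 were higher (background 17.7%) and 15 lower (background 11.6%). Some of those lower in DDX23−/− stood near a limit of the counts, described below. Of the 28 with the higher POLK−/− enrichment, 6 were higher on both scales, and of the 28 lower, 3 were.

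The extreme ratios show the same. VTRNA1-1 at ENSG00000292256 had the highest ratio of POLK−/− to wild-type enrichment, 9.22, with a local background of 4.24 fragments in the wild-type list and 1.25 in the POLK−/− list, and 1.15 per depth. ENSG00000259932 had 3.58 and LINC00324 3.85, but 0.851 and 0.772 per depth. At the low end, RNY5 at ENSG00000286171 had 0.218 and remained low per depth. MEF2C-AS2 had 0.366 but 1.84 per depth, ENSG00000232876 0.367 but 1.07, and CLASP1-AS1 0.401 but 1. In the DDX23−/− list, ENSG00000263080 in an intron of RMI2 had a ratio of 3.55 and 2.25 (1.36 to 3.97) per depth, with 17, 69 and 151 fragments. The highest DDX23−/− ratio was again that of VTRNA1-1, 6.39, with 1.13 (0.872 to 1.49) per depth. ENSG00000287279 had 3.77 but 1.29 per depth, and ENSG00000259932 had 3.44 but 0.588 (0.486 to 0.713). At the low end, ENSG00000288955 had 0.336 and 0.549 (0.268 to 1.19) per depth, CLN8-AS1 0.428 and 0.862 (0.416 to 1.96), and FRMD6-AS2 0.464 and 0.622 (0.299 to 1.39). RNU6-7 at ENSG00000286527 had 0.513 and 0.829 (0.597 to 1.17), so all 4 intervals per depth included 1.

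The strongest members also stood near a limit of the counts. No peak of any list had more fragments than 2 times the length of its shortest peak, 456, 422 and 392, and the largest counts were 456, 402 and 390. In the DDX23−/− list 11 members reached 90% of that value, in the POLK−/− list 1 and in the wild-type list 0. LINC01623, with the most fragments of any member in each list, stood at 0.595 (0.509 to 0.696) of its wild-type value per depth in POLK−/−. In DDX23−/− it stood at 0.354 (0.303 to 0.415). Other members near the limit in DDX23−/− were LINC02136 (388 fragments, 0.494 per depth), LINC00324 (373, 0.464), ENSG00000259932 (364, 0.588) and ENSG00000262521 (374, 0.784). The part of this limit in these values, and in the DDX23−/− median and counts per depth, was not tested.

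**Figure D4:**
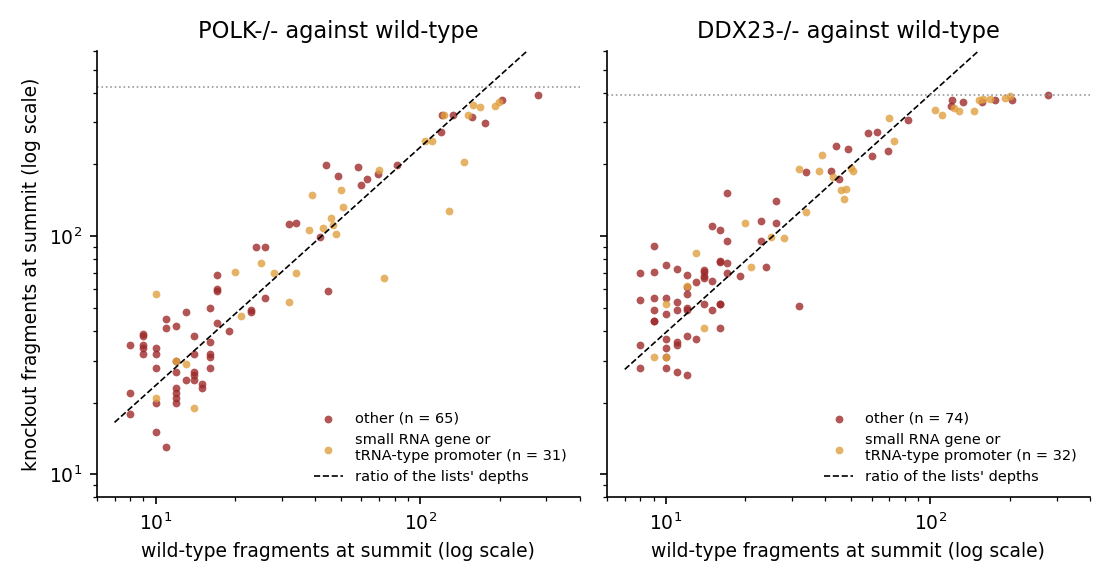
Fragments at the summit in the POLK−/− list (left) and the DDX23−/− list (right) against those in the wild-type list (both axes log scale), 1 point for each member in both lists; the dashed line is the ratio of the lists' depths and the dotted line is 2 times the shortest peak of the knockout list. Points scatter around the dashed line and bend toward the dotted line at the top, and RNY1 and RNY5 lie below the dashed line on the left, with 127 and 67 POLK−/− fragments.

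Base composition differed with the lists that held a member. The median G and C content of the bases within 150 bp of the strongest summit was 65.4% (64.8 to 66.8) over all members, 67.4% (67.1 to 67.8) at protein-coding starts and 60.8% (59.8 to 61.8) at regions near neither start. Members with a small RNA gene or tRNA-type promoter had 50% (46.2 to 55.1), and the others 66.4% (65.4 to 67.4). Members in the DDX23−/− list only had 68.6% (67.1 to 69.4), those in both knockout lists only 64.8% (63.5 to 65.8), those in all 3 lists without either feature 63.3% (59.8 to 65.1), and the 15 in the POLK−/− list only 57.8% (52.8 to 62.8). Regions at protein-coding starts in the DDX23−/− list only had 67.8% (67.4 to 68.4), an interval that overlaps that of the members with this pattern. The part of the libraries' base composition in these values was not tested. The ratio of observed to expected CpG was 0.802 (0.789 to 0.822) at members and 0.856 (0.851 to 0.861) at protein-coding starts, and was lowest, 0.592 (0.29 to 0.714), at the 15 members in the POLK−/− list only.

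**Figure D5:**
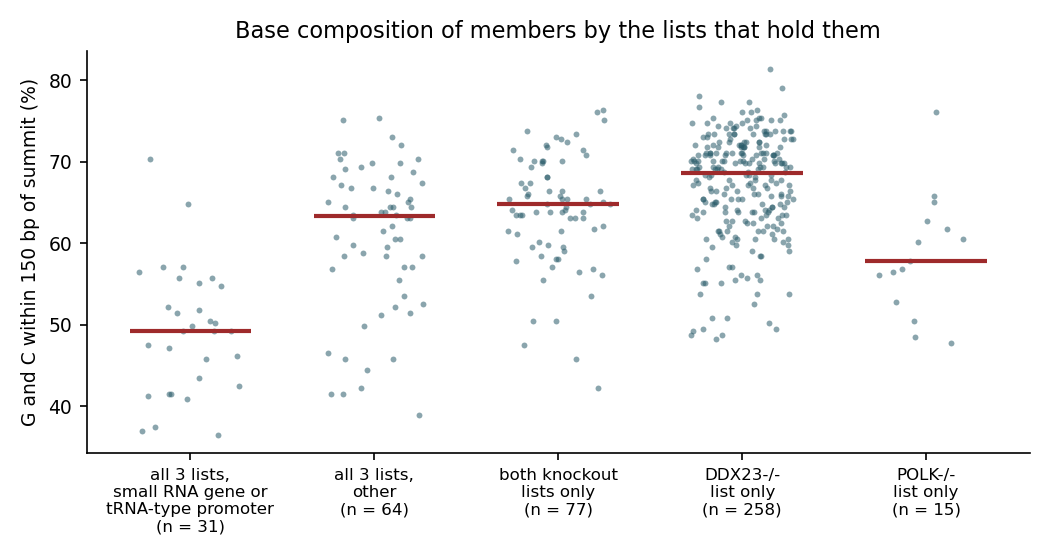
G and C content (%, vertical axis) within 150 bp of the strongest summit, 1 point for each member, by the lists that hold it; lines are medians, and the 16 members with other patterns are not shown. The medians rise from 49.2% at the 31 members in all 3 lists with a small RNA gene or tRNA-type promoter to 68.6% at the 258 in the DDX23−/− list only.

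Promoter motifs were searched on both strands of the same windows. GGGCGG, the core of the Sp1 site, lay in 69.6% of members (65.2 to 73.8), 75.1% of regions at protein-coding starts and 69.3% of all regions. It lay in 26.5% of the members with a small RNA gene or tRNA-type promoter (12.9 to 44.4) and in 79.8% of those in the DDX23−/− list only (74.4 to 84.6). CCAAT, bound by NF-Y, lay in 36% of members, 35.4% of protein-coding starts and 35.2% of all regions. TATAAA lay in 5.21% of members (3.36 to 7.65), 2.82% of protein-coding starts (2.35 to 3.35) and 4.1% of all regions. AAGATGGCG, the core of the YY1 site, lay in 2.82% of members (1.51 to 4.77) and 6.27% of protein-coding starts (5.58 to 7.03), and in 5.08% of all regions. The ETS motif CCGGAAGT lay in 6.94% of members, 9.23% of protein-coding starts and 7.63% of all regions, and the NRF1 motif CGCATGCG in 4.34%, 3.99% and 3.57%. The CREB motif TGACGTCA lay in 4.34%, 3.27% and 3.02%, and the octamer ATTTGCAT in 0.434%, 0.79% and 0.771%. The A box followed by the B box lay in these windows at 15 members (3.25%, 1.83 to 5.31), at 0.406% of protein-coding starts and at 1.88% of all regions.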

How the data were processed

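ChIP-Seq peaks of HEK293T cells were taken from 3 deposited lists, 1 each for wild-type, POLK−/− and DDX23−/−, with genotypes from the sample labels. Titles of these samples begin with R_, which is not explained in the sources used here. The other 13 samples were not analysed here. Per the labels, the processing notes name Bowtie2, MACS2, bedtools, deepTools and hg19, without versions. The control, the threshold and any pooling of replicates are not given in the sources used here. The authors deposited, for each peak, a score, a fold (a ratio with 1 added to the fragments and to the background), the −log10 of the p-value and of the q-value, and the summit's offset. The weakest −log10 p was 5.28, 4.7 and 4.48.

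The MACS2 formulas were solved for the whole number of fragments and the local background that give each deposited fold and p within a relative tolerance of 0.0001, and this was found for all 1468, 2451 and 5945 peaks, with pulldown scales of 1.0, 0.736 and 0.66. The procedure was tested on simulated data. The fewest fragments of a peak were 6, 10 and 14. Depth relative to wild-type was taken from the lowest background that 2% or more of a list's peaks had in common (0.573, 1.25 and 1.94 fragments), per bp of the shortest peak (228, 211 and 196 bp). The number of reads is unknown.

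Peaks overlapping by at least 1 bp were merged and classed by GENCODE release 44 gene starts on GRCh37. A region with several peaks of a list was given the one with the smallest p. Sequence was read from GRCh37, the same build as hg19. Shares have exact binomial (Clopper-Pearson) intervals, fragments exact Poisson intervals, and medians intervals from binomial order statistics. The study's methods state, for the Pol κ ChIP-Seq, that duplicates were removed with Picard after alignment. They do not say whether this holds for the lists used here. All intervals cover counting error only. No tests were run, since each genotype has 1 list. The members, the lists of genes and motifs, and the comparisons were chosen with earlier results of these data known. Members were named by the lncRNA gene start nearest to the strongest summit. Named in full were the 12 strongest in all 3 lists, the 6 strongest there without a tRNA-type promoter or small RNA gene, the 5 strongest of each other pattern, the 4 highest and 4 lowest ratios for each knockout, and members of the lists of known genes. Some items that this rule names are not reported here. Other genes named for a small RNA, and ENSG00000270117, were chosen after their values were seen. Alternatives were tried for the distance to a start, the starts used, the threshold, the number of peaks, the merging, the chromosomes, SNHG genes and tRNA-type promoters. Python 3.11.15, numpy 2.4.6, pandas 2.3.3, scipy 1.17.1 and matplotlib 3.10.9 were used.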

Additional observations from a re-analysis of the deposited data

How the results depend on the processing

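Of 111 values recomputed under 14 alternatives, 95 stayed within the 95% interval of the reported value, or within 1.5 times a reported count. Among the alternatives, 3 were chosen after the data were seen. A reversal could be counted only for the DDX23−/− ratio, whose interval excluded 1, and it did not occur. The POLK−/− ratio lay on either side of 1, at 0.947 as reported and 1.08 at equal numbers of peaks. Keeping only chromosomes 1 to 22 and X left all 461 members and changed no value. With 1468 peaks per list there were 168 members, of which 66.1% were in wild-type, 68.5% in POLK−/−, 72.6% in DDX23−/−, 45.2% in every list and 13.1% in DDX23−/− alone. Their GC content was 63.1%, 10.1% held a tRNA-type promoter, and the median ratio of DDX23−/− to wild-type enrichment was 1.43. Counting transcript starts of protein-coding genes as starts left 289 members, with a GC content of 63.8%. A distance of 5 kb gave a GC content of 64.6%. Of the alternatives chosen later, the wider boxes alone gave 7.81% with a tRNA-type promoter. The same boxes matched 5.09% of all regions and 17.1% of those near neither start. Leaving out tRNA-type promoters and small RNA genes gave 18.5% in wild-type and 15% in every list. Fragments over list depth gave a DDX23−/− ratio of 1.02. No paired analysis was possible because each genotype has 1 list and no result comes from a test. Each genotype has 1 list, and the lists differ in depth, which limits every count of peaks compared between them.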
